A study of Mus musculus with 12 samples.

Results

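The 7 genes described here encode proteins that bind RNA in the nucleus and shape messenger RNA, namely Rbfox1, Elavl1, Tra2b, Sf1, Sf3b2, Rbm4 and Rbm14. They were taken by name from the deposited count table, which held all 7 among its 35129 gene entries. RNA had been sequenced from fluorescent cortical neurons of male mice (20 g, 5 to 7 weeks old) that carried a subcutaneous osmotic mini pump with saline or with nicotine hydrogen tartrate at 48 mg/kg/d for 14 days. Sst-neurons came from GIN mice on an FVB background, where eGFP labels only some of the interneurons that make somatostatin (Sst). Thy1-neurons came from YFPH mice on a B6 background, in which a Thy1 promoter fragment drives yellow fluorescent protein, mostly in layer V pyramidal neurons. The strain backgrounds of the lines differed, so that cell type and strain cannot be told apart. Cells were aspirated by hand in portions of 10 and their cDNA was amplified. The groups were Sst (3 libraries), Sst+Nic (2), Thy1 (2) and Thy1+Nic (3), and replicate 1 of Sst+Nic and of Thy1 was not analysed here. The labels do not tie a library to a mouse, so that p-values measure only the spread between these samples, which may be technical.

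Splicing removes introns from the primary transcript. SF1 recognises the branch point of an intron at an early step, and is then replaced by the U2 small nuclear ribonucleoprotein, whose SF3b complex contains SF3B2. Other proteins decide which exons are kept. RBFOX1 does so in neurons, heart and muscle, and many exons of synaptic and ion channel transcripts are among its known targets, while TRA2B is an SR-like protein that promotes the inclusion of exons rich in purines. RBM4 acts on alternative splicing and on translation, RBM14 is a coactivator and a component of paraspeckles, and ELAVL1 (HuR) binds AU-rich elements and stabilises transcripts. Of the 7 genes, Rbfox1 is the one whose expression is known to be largely restricted to neurons, heart and muscle. All libraries were from neurons, so that a restriction to neurons could not be examined.

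The genes lie on 3 chromosomes of GRCm38. Rbfox1 is on chromosome 16 (5884793 to 7412480, plus strand) and is the longest, with a span of 1527.7 kb. Tra2b is also on chromosome 16 (22244552 to 22266005, minus strand), and Elavl1 is on chromosome 8 (4284781 to 4325140, minus strand). The other 4 genes lie close together on chromosome 19, namely Rbm4 (4784293 to 4794009, minus strand), Rbm14 (4800566 to 4811634, minus strand), Sf3b2 (5273921 to 5295457, minus strand) and Sf1 (6363673 to 6378038, plus strand). Rbm4 and Rbm14 are neighbours on the same strand, and the readthrough gene Gm21992, which spans both, shares 60.5% of the exon bases of Rbm4 and 18.6% of those of Rbm14. No count was read for Gm21992 here, and how fragments on shared exons were assigned is not given in the sources used here. Smaller shares of exon bases overlap genes of the opposite strand, 8.93% in Rbm14, 2.84% in Sf3b2, 1.97% in Elavl1 and 1.13% in Sf1. The kit did not mark strand, so fragments of such a partner cannot be told apart from those of the gene.

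The letters before the start sites are shown for 3 of these genes: Rbm4 and Rbm14, neighbours whose levels are compared below, and Rbfox1, the gene with the highest level. Each run is the 250 bases upstream of an annotated start (RefSeq, GRCm38.p6), 5′ to 3′ on the strand of the gene, and capitals mark matches on either strand to 3 common promoter motifs, namely the TATA box TATAAA, the CCAAT box and the GC box GGGCGG. The Rbm14 run ends with 2 matches that overlap each other.
Rbm14 (chr19:4811635-4811884, minus strand): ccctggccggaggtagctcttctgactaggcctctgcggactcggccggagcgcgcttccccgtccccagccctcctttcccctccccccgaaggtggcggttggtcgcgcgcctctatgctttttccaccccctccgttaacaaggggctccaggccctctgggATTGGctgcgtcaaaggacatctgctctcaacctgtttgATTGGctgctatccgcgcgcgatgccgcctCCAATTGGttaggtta
Rbm4 (chr19:4793902-4794151, minus strand): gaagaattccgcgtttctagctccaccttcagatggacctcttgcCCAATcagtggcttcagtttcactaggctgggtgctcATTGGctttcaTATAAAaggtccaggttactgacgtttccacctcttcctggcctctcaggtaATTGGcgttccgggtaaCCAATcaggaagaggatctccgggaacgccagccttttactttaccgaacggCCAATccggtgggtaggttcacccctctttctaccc
Rbfox1 (chr16:5884543-5884792, plus strand): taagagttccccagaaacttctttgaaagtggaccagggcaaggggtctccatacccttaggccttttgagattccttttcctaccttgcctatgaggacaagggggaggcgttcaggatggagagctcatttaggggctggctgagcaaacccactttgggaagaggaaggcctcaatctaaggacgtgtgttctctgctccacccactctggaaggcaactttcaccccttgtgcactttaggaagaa
The CCAAT box, which reads ATTGG on the other strand, matched 4 times upstream of Rbm14 and 5 times in this Rbm4 run, which also held TATAAA once. At least 4 matches to CCAAT occurred in 0.840% of 32851 promoter runs of the same length, and at least 5 in 0.213%. A single match or more was present in 33.8% of the runs for CCAAT, in 12.4% for TATAAA and in 32.7% for GGGCGG. The run before a second annotated start of Rbm4, the one at the gene's end given above, overlaps the first run and had 2 matches to CCAAT (10.1% of promoters had as many) and 1 to TATAAA, at the same letters as in the first run. Neither of the 2 Rbfox1 runs held any of the 3 motifs, and their G and C content was 51.2% and 48.4%, against a median of 52.4% over all runs. The runs of Elavl1, Sf1 and Rbm14 had 67.6%, 64.0% and 63.2%. These matches describe letters and are not evidence of binding.

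Not all of the table could be read by gene name. Among entries of messenger RNA genes, 67.6% of 676 held at least 100 fragments in all libraries together within stretches that run from the start of chromosomes 16 (to 88.3 Mb), 8 (15.0 Mb), 19 (6.4 Mb) and 7 (3.3 Mb), against 23.4% of 17987 elsewhere. Entries elsewhere do not seem to carry the fragments of the genes they name: of 75 entries of cytosolic ribosomal protein genes, 12 held as many. All 7 genes lie in these stretches, and names are used only there and for mitochondrially encoded genes. Library totals were between 2915738 and 4878326 fragments, so that 0 counts, taken as up to 3, would allow 0.615 to 1.03 CPM (the count divided by the library total and multiplied by 1e6). Sst, the gene that marks the interneurons, had 53779 to 126088 CPM in Sst-neurons and 1.15 to 49.2 in 4 of the 5 libraries of Thy1-neurons. The library labelled Thy1 replicate 3 stood apart with 3795 CPM of Sst. Of the 17 other marker genes examined, 3 lay in the stretches. Cldn5 of endothelial cells was at 0 to 35.7 CPM, Cd86 and Hcls1 of microglia were at 0 to 50.5 and at 0 to 2.43 CPM, and each was at 0 in at least 6 of the 10 libraries. Mitochondrially encoded genes took 16.3% to 22.1% of fragments in Sst-neurons and 31.4% to 38.5% in Thy1-neurons.

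The levels of the 7 genes differed far more between genes than between libraries. Divided by exon length, the median CPM per kb over the 10 libraries was 299 for Rbfox1, 105 for Sf3b2, 40.3 for Tra2b, 33.6 for Sf1, 17.9 for Rbm4, 16.0 for Elavl1 and 9.31 for Rbm14. Exon length joins the exons of all annotated transcripts of a gene, which need not be those expressed. Part of the order depends on it, since the median CPM was 166 for Elavl1 and 88.5 for Rbm4. Per length, Rbfox1 was first and Sf3b2 second in 10 of 10 libraries. In fragments, Sf3b2 (3630) was above Rbfox1 (3366) in Thy1+Nic replicate 1. The lowest Rbfox1 value (192 CPM per kb) was above the highest of Sf3b2 (153). Levels on chromosome 16, where Rbfox1 and Tra2b lie, may be inexact. Ratios of entries there to the study's Sst group values ran from 0.3077 to 1.0455. Among the rest the order was not fixed: the place after them was held by Tra2b in 7 libraries and by Sf1 in 3, and Elavl1, Rbm4 and Rbm14 overlapped in their ranges (8.70 to 22.0, 10.7 to 23.7 and 4.14 to 23.2 CPM per kb). Together the 7 genes received between 0.203% and 0.448% of all fragments of a library.

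**Figure D1:**
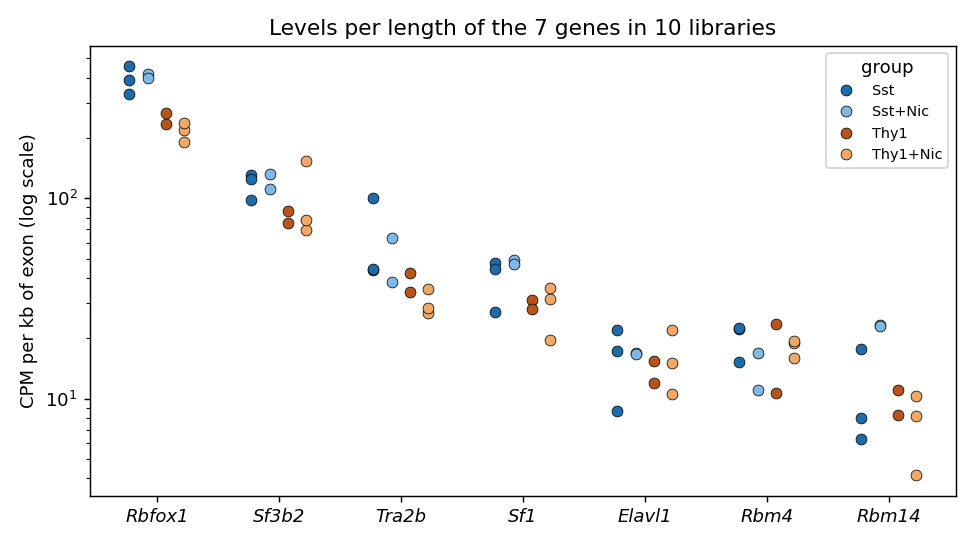
CPM per kb of exon (log axis) for the 7 genes, with 1 point per library, coloured by group. Rbfox1 lies at 192 to 456 CPM per kb, above all other genes in each library, and Rbm14 spreads from 4.14 to 23.2.

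The spread between libraries of a group was wider than counting error for some values and not for others. Rbfox1 was counted on 3366 to 8579 fragments per library, and Rbm14, the least abundant, on 55 to 438. For the lowest Rbm14 value, 16.2 CPM in Thy1+Nic replicate 3, the 95% Wilson interval was 12.4 to 21.1 CPM, while the libraries of that group reached 40.4 CPM. The Sst+Nic libraries of the same gene (90.9 and 89.8 CPM) differed by less than their intervals, 80.6 to 103 and 81.8 to 98.6. The highest value of a gene was 2.21 (Sf3b2 and Rbm4), 2.38 (Rbfox1), 2.52 (Sf1), 2.53 (Elavl1), 3.78 (Tra2b) and 5.61 (Rbm14) times its lowest. Intervals of this kind cover counting error only, and amplified cDNA without molecular identifiers does not give independent molecules. A lower level in such pooled cells can mean fewer cells that express the gene or less RNA per cell, which cannot be told apart.

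Among the factors that choose exons, Rbfox1 was at 2007, 1459 and 1726 CPM in Sst, at 1833 and 1759 in Sst+Nic, at 1035 and 1171 in Thy1 and at 969, 844 and 1044 in Thy1+Nic. All libraries of Sst-neurons were above all of Thy1-neurons, and nicotine and saline libraries overlapped in both cell types. The group means were 1731 ± 274 (SD, n = 3), 1796 ± 52.5 (n = 2), 1103 ± 96.2 (n = 2) and 952 ± 101 CPM (n = 3). Tra2b was at 927, 406 and 411 CPM in Sst, at 584 and 354 in Sst+Nic, at 390.1 and 314 in Thy1 and at 245, 260.2 and 325 in Thy1+Nic. Sst replicate 1 was the high library, and the other Sst libraries were close to the Thy1 libraries. For Rbm4 the values were 110.4, 111 and 75.0 CPM in Sst, 83.3 and 54.3 in Sst+Nic, 117 and 53.0 in Thy1 and 93.6, 79.2 and 95.2 in Thy1+Nic. The Thy1 libraries of Rbm4 were at both ends of its range, so that the spread within that group covered the other groups.

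Of the general splicing factors, Sf3b2 was at 889, 668 and 855 CPM in Sst, at 907 and 758 in Sst+Nic, at 591 and 513 in Thy1 and at 1045, 474 and 531 in Thy1+Nic. Thy1+Nic replicate 1 was the highest of all libraries, while the others of its group were among the lowest. Sf1 was at 295, 168 and 275 CPM in Sst, at 306 and 291 in Sst+Nic, at 192 and 174 in Thy1 and at 196, 221 and 121 in Thy1+Nic. Both Sst+Nic libraries exceeded those of Thy1+Nic, but saline groups overlapped since Sst replicate 2 was low.

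Elavl1, the stability factor, was at 179, 228 and 90.1 CPM in Sst, at 174 and 172 in Sst+Nic, at 159 and 123 in Thy1 and at 156, 109 and 227 in Thy1+Nic. Its groups overlapped in each of the 4 comparisons. Rbm14 was at 68.6, 31.1 and 24.6 CPM in Sst, at 90.9 and 89.8 in Sst+Nic, at 32.4 and 42.8 in Thy1 and at 32.0, 40.4 and 16.2 in Thy1+Nic. Both Sst+Nic libraries were above all of the other 8, and Sst replicate 1 came next.

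**Figure D2:**
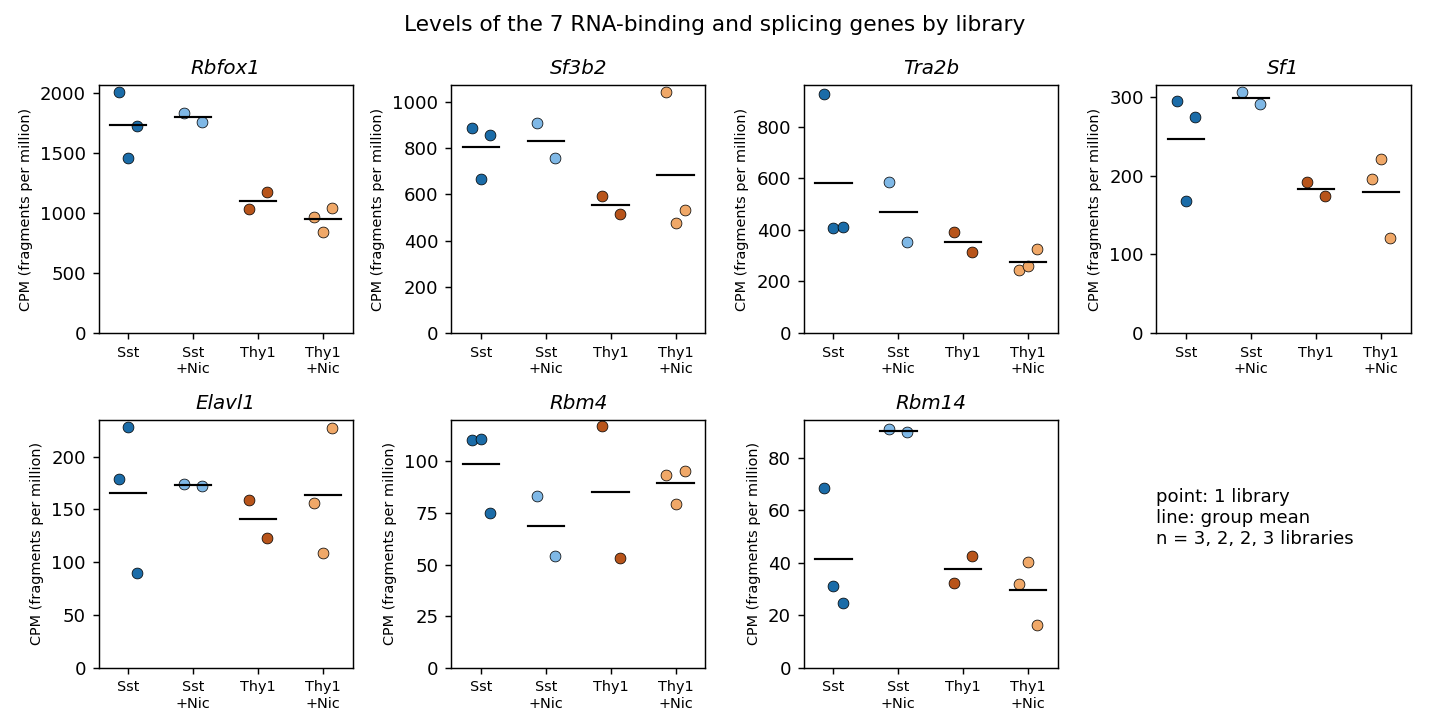
CPM of each gene by group, with 1 point per library and a line at the group mean (n = 3, 2, 2 and 3 libraries for Sst, Sst+Nic, Thy1 and Thy1+Nic), on axes that start at 0. Rbfox1 is at 1459 CPM or more in each library of Sst-neurons and at 1171 or less in each of Thy1-neurons, and Rbm14 is highest in Sst+Nic, at 90.9 and 89.8.

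To assess nicotine in each cell type, counts were scaled by TMM and fitted in edgeR (quasi-likelihood test). An entry was called when its p-value, adjusted by Benjamini-Hochberg, was under 0.05 and its log2 fold change was beyond 1 in either direction. In Sst-neurons 0 of the 7 genes were called, as were 0 of all 6689 entries tested (0%). The number of entries at an unadjusted p-value under 0.05 was 280 of these, with 0 of the 7 genes among them, and DESeq2 called 16 entries and limma voom 0, again without any of the 7. In Thy1-neurons 0 of the 7 genes and 0 of 6048 entries (0%) were called, with 264 entries and 0 of the 7 at an unadjusted p-value under 0.05, and DESeq2 called 14 entries and limma voom 0, none of them a member of the group of 7. The adjusted p-value in edgeR was 1.00 for each of the 7 genes in both comparisons.

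Of the 7 genes, Rbfox1, the most abundant, had the smallest SE of the nicotine effect in both cell types. Rbfox1 had a log2 fold change of -0.15 ± 0.20 (SE) in Sst-neurons, a 95% interval of 0.651 to 1.25-fold, and of -0.12 ± 0.25 in Thy1-neurons, 0.620 to 1.37-fold. Sf3b2 had -0.16 ± 0.21 in Sst-neurons (0.629 to 1.27-fold) and 0.42 ± 0.39 in Thy1-neurons, where leaving out Thy1+Nic replicate 1 gave -0.05. Both intervals in Sst-neurons lay within a 2-fold change in either direction. Sf1 had 0.09 ± 0.28 and 0.11 ± 0.39 in the cell types, and Elavl1 had -0.18 ± 0.45 and 0.30 ± 0.35. The sign of some of these small values turned with 1 library left out. Rbfox1 in Thy1-neurons was at 0.09 without Thy1 replicate 3, and Sf1 was at -0.07 in Sst-neurons without Sst replicate 2, at -0.03 without Sst+Nic replicate 3 and at -0.11 in Thy1-neurons without Thy1+Nic replicate 2 (0.36 without Thy1+Nic replicate 3). Elavl1 in Sst-neurons was at 0.26 without Sst replicate 2 and at -0.47 without Sst replicate 3, and in Thy1-neurons at 0.07 without Thy1+Nic replicate 3. Tra2b was at -0.50 ± 0.36 and -0.24 ± 0.27, and without Sst replicate 1 the first of these became -0.13.

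The largest nicotine values among the 7 genes belonged to the neighbours Rbm14 and Rbm4 in Sst-neurons, in opposite directions. Rbm14 had a log2 fold change of 0.96 ± 0.50 (unadjusted p = 0.0962 and adjusted p = 1.00 in edgeR), an interval of 0.859 to 4.41-fold. Leaving out 1 library in turn gave log2 values from 0.71 to 1.39, the highest without Sst replicate 1. Rbm4 had -0.77 ± 0.39 (unadjusted p = 0.0891, adjusted p = 1.00 in edgeR), an interval of 0.308 to 1.11-fold, and from -0.99 to -0.57 with a library left out. In Thy1-neurons the values were -0.22 ± 0.60 for Rbm14 and 0.20 ± 0.41 for Rbm4. Without Thy1 replicate 3, the library with Sst transcripts, they were 0.14 and -0.17, and without Thy1 replicate 2 they were -0.47 and 0.77.

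Whether the effect of nicotine differed between cell types was tested as an interaction over all 10 libraries. Of 8242 entries, 0 were called (0%), 0 of the 7 genes among them, and at an unadjusted p-value under 0.05 were 605 entries but 0 of the 7. The calls of DESeq2 were 25 entries and those of limma voom 0, without any of the 7. The largest values were again those of Rbm14, 1.14 ± 0.83 (unadjusted p = 0.193, adjusted p = 0.816 in edgeR), and Rbm4, with an interval of 0.206 to 1.21-fold (unadjusted p = 0.115, adjusted p = 0.757 in edgeR). The interaction was -0.06 ± 0.31 for Rbfox1 and -0.04 ± 0.50 for Sf1, -0.61 ± 0.46 for Sf3b2, -0.50 ± 0.60 for Elavl1 and -0.30 ± 0.47 for Tra2b. Leaving out single libraries moved these values. Rbm4 ranged from -1.53 (without Thy1 replicate 2) to -0.59 (without Thy1 replicate 3) and Rbm14 from 0.83 (without Thy1 replicate 3) to 1.59 (without Sst replicate 1), while the small values of Sf1 and Rbfox1 had the opposite sign in 11 and 6 of 20 values from other settings or with a library left out. Sf3b2 was at -0.13 without Thy1+Nic replicate 1, Elavl1 at -0.02 without Sst replicate 2 and Tra2b at 0.09 without Sst replicate 1.

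A ratio of 2 genes within a library does not depend on how libraries are scaled. The number of fragments on Rbm4 divided by that on Rbm14, a ratio chosen after the values were seen, was 1.61, 3.58 and 3.05 in Sst, 0.917 and 0.605 in Sst+Nic, 3.61 and 1.24 in Thy1 and 2.93, 1.96 and 5.87 in Thy1+Nic. Rbm4 had more fragments than Rbm14 in the 8 libraries outside Sst+Nic and fewer in both Sst+Nic libraries. The difference of the mean log2 ratio was -1.80 between Sst+Nic and Sst and -2.12 between Sst+Nic and Thy1+Nic. Each had a two-sided exact permutation p of 0.2, the smallest that 3 against 2 libraries allow, and 0.800 after Benjamini-Hochberg adjustment over 20 tests of 5 ratios. With each library left out in turn, the first difference stayed between -2.15 and -1.50. Reads on the exons shared with Gm21992 bear on both genes, and their part in the ratio was not tested. Rbm4b, a close paralog of Rbm4, is on the same chromosome (4756452 to 4765946) and had 32.1, 41.3 and 19.4 CPM in Sst and 39.8 and 27.7 in Sst+Nic, and fragments that match both paralogs make the count of Rbm4 uncertain.

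**Figure D3:**
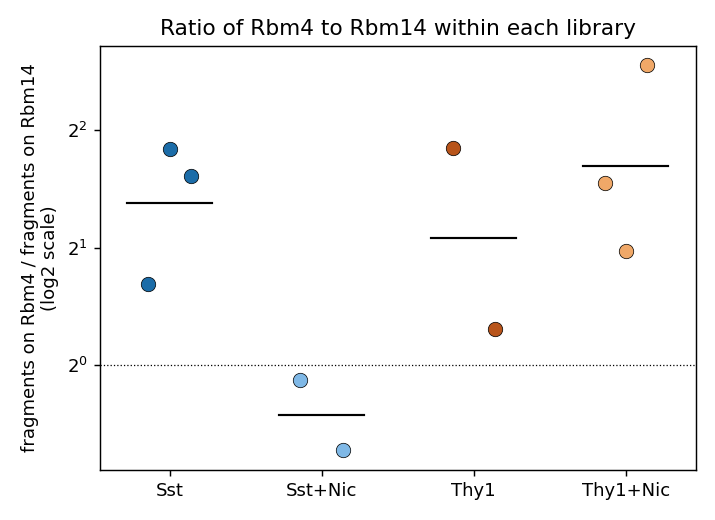
Fragments on Rbm4 divided by fragments on Rbm14 (log2 axis), with 1 point per library, a line at the geometric mean of each group and a dotted line at a ratio of 1. The 2 Sst+Nic libraries (0.917 and 0.605) are below 1 and the other 8 are between 1.24 and 5.87.

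The other 4 ratios pair the more abundant genes. Rbfox1 had 2.15 ± 0.122 times the fragments of Sf3b2 in Sst (SD, n = 3), 2.17 ± 0.211 in Sst+Nic (n = 2), 2.02 ± 0.374 in Thy1 (n = 2) and 1.56 ± 0.553 in Thy1+Nic (n = 3). The low value of the last group came with the high Sf3b2 count of Thy1+Nic replicate 1, where the ratio was 0.927. The ratio of Sf3b2 to Sf1 was 3.37 ± 0.532, 2.79 ± 0.253, 3.01 ± 0.0873 and 3.95 ± 1.64 in the same groups. Rbfox1 over Tra2b was 3.32 ± 1.04, 4.05 ± 1.29, 3.19 ± 0.760 and 3.47 ± 0.417, and its groups overlapped in all 4 comparisons. Rbfox1 over Elavl1 was 12.2 ± 6.44, 10.4 ± 0.231, 8.01 ± 2.14 and 6.19 ± 1.58. Without overlap, and with the same exact permutation p of 0.2 as above, were Rbfox1 over Sf3b2 and Rbfox1 over Elavl1 between Sst+Nic and Thy1+Nic (log2 differences of 0.55 and 0.78) and Sf3b2 over Sf1 between Sst+Nic and Sst (-0.27).

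The comparison of cell types without nicotine called 109 of 6350 entries (1.72%), and 0 of the 7 genes, of which none passed at an unadjusted p-value under 0.05 either, against 1036 of all entries. Among the 502 tested entries that were in the filled stretches or mitochondrially encoded, 24 were called. The Sst gene itself was not called (5.41 ± 2.29, adjusted p = 0.308 in edgeR), so that a missing call does not show equal levels. With DESeq2 551 entries were called and with limma voom 109, in both cases with 0 of the 7. Rbfox1 came closest, with a log2 fold change of 0.46 ± 0.20 (unadjusted p = 0.0523, adjusted p = 0.314 in edgeR), or 1.38-fold higher in Sst with an interval of 0.993 to 1.91. With 1 library left out in turn it was from 0.24 (without Thy1 replicate 2) to 0.64 (without Thy1 replicate 3), where the lone Thy1 library is assumed to vary like the Sst libraries. Sf3b2 was at 0.37 ± 0.20 (0.927 to 1.79-fold) and Tra2b at 0.52 ± 0.35, which became 0.10 without Sst replicate 1. Sf1 was at 0.23 ± 0.28, Elavl1 at 0.10 ± 0.45, Rbm4 at 0.09 ± 0.43 and Rbm14 at -0.08 ± 0.58. The last 3 changed sign with single libraries left out, and without Thy1 replicate 3 they were -0.01, -0.32 and 0.21.

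After nicotine, 33 of 6509 entries (0.507%) were called between cell types, and again 0 of the 7 genes. Among the 517 tested entries that were in the filled stretches or mitochondrially encoded, 9 were called. The Sst gene was called here (11.19 ± 1.59, adjusted p = 0.0356 in edgeR). DESeq2 called 496 entries and limma voom 65, with 0 of the 7 in each. Of the 7, only Rbm4 had an unadjusted p-value under 0.05 in edgeR, with a log2 fold change of -0.90 ± 0.38 (unadjusted p = 0.0495, adjusted p = 0.316), or 0.536 times its level in Thy1+Nic. Of all 6509 entries, 1027 were at an unadjusted p-value under 0.05, so that 1 of 7 is near the background. Rbm14 was at 1.07 ± 0.56 (unadjusted p = 0.0947, adjusted p = 0.442 in edgeR), an interval of 0.853 to 5.17-fold, and Rbfox1 at 0.42 ± 0.25 (0.895 to 2.00-fold). The other values were -0.39 ± 0.36 for Elavl1, -0.23 ± 0.40 for Sf3b2, 0.24 ± 0.30 for Tra2b and 0.20 ± 0.40 for Sf1. With 1 library left out, Sf3b2 was at 0.24 (without Thy1+Nic replicate 1), Tra2b at -0.02 (without Sst+Nic replicate 2) and Sf1 at -0.05 (without Thy1+Nic replicate 3), each with the opposite sign.

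**Figure D4:**
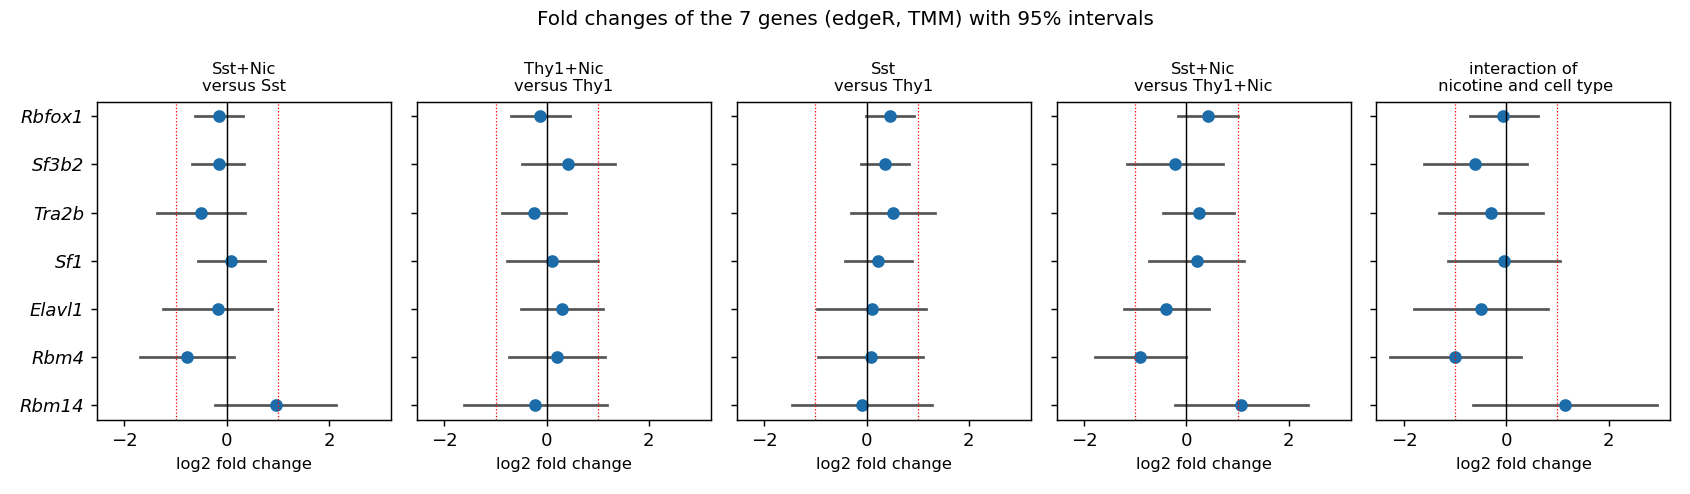
Log2 fold changes of the 7 genes in edgeR with 95% intervals, in 5 panels for both nicotine comparisons, both cell type comparisons (Sst-neurons over Thy1-neurons) and the interaction, with dotted lines at -1 and 1. The point farthest from 0 is that of Rbm14 in the interaction (1.14), with an interval from -0.66 to 2.95.

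How far apart the cell types were depended on the scaling of libraries. With library totals in place of TMM the value of Rbfox1 was 0.65 without and 0.92 with nicotine, against 0.46 and 0.42, and Tra2b was at 0.72 and 0.76, against 0.52 and 0.24. The same scaling turned the sign of Rbm14 without nicotine (0.14) and of Elavl1 (0.08) and Sf3b2 (0.28) after nicotine. Mitochondrially encoded genes took a larger share in Thy1-neurons, and with them left out of counts and totals Rbfox1 was at 0.42 in both comparisons under TMM. In CPM of such totals Rbfox1 was at 1874 to 2557 in Sst and at 1514 to 1819 in Thy1, without overlap. As a share of the filled stretches alone, scaled like CPM, where the Sst gene also lies, Rbfox1 was at 4688 to 8934 in Sst and 6751 to 8418 in Thy1, and the groups overlapped. The means of the Rbfox1 share had the opposite order without nicotine, 6617 in Sst and 7584 in Thy1, but not with it, 7073 in Sst+Nic and 6728 in Thy1+Nic. On the same scale the Sst gene itself took 272472 to 405043 in Sst, and 7.48 and 27288 in Thy1. Its large share lowers that of every other entry in Sst, and the order without the Sst gene was not tested. In the edgeR fit of the entries in the filled stretches, with TMM among them, Rbfox1 was at 0.65 in both comparisons (adjusted p = 0.104 without nicotine, the lowest of its alternatives, and 0.181 with it). Rbm4 after nicotine went from -0.90 to -0.38 with library totals (adjusted p = 0.747 in edgeR), and in CPM its Sst+Nic and Thy1+Nic libraries overlapped.

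**Figure D5:**
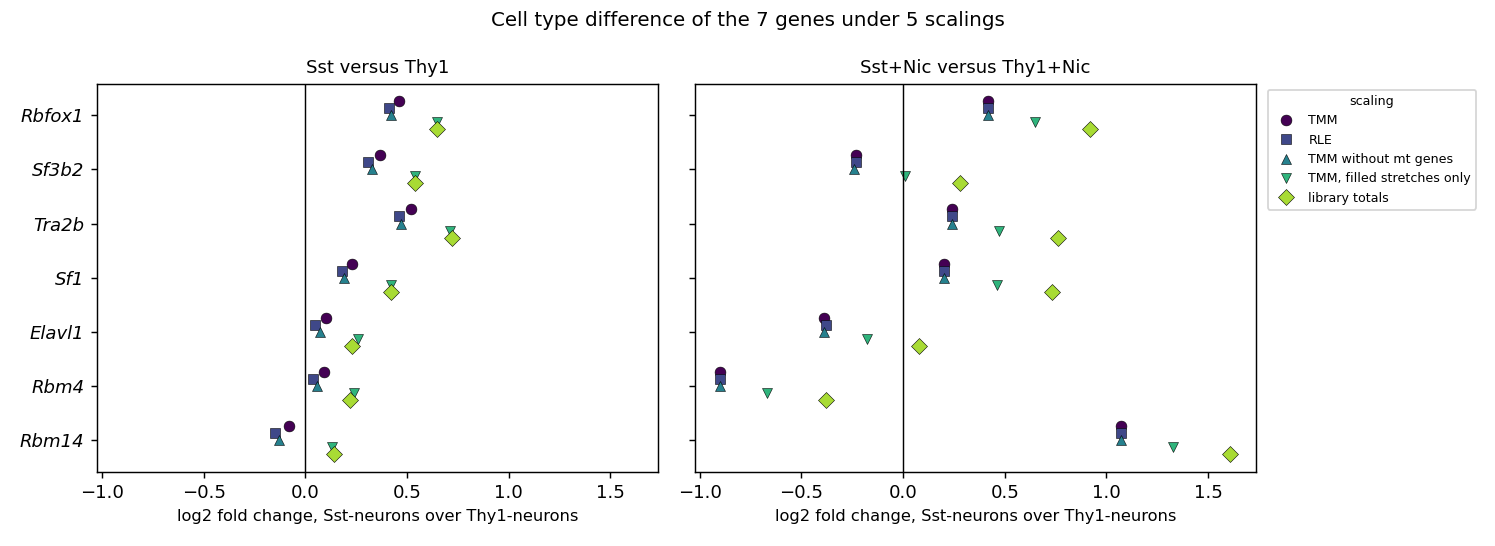
Log2 fold change of Sst-neurons over Thy1-neurons under 5 scalings of the libraries, without nicotine (left) and with nicotine (right), 1 symbol per scaling. Library totals and the filled stretches give the values farthest to the right without nicotine, and library totals do so for all 7 genes with it (Rbfox1 0.65 and 0.92), and Rbfox1, Tra2b and Sf1 are right of 0 under all 5 in both panels. With a library left out, Tra2b (-0.02) and Sf1 (-0.05) turn after nicotine.

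Counted by overlap of libraries in TMM-normalized CPM, Rbfox1 and Sf3b2 (2 of 7) were higher in Sst than in Thy1 without overlap, where 35.1% of 6344 entries did not overlap in either direction. After nicotine Rbfox1 and Rbm14 were higher and Rbm4 lower in Sst+Nic than in Thy1+Nic without overlap (3 of 7, against 34.6% of 6509 entries). Between Sst+Nic and Sst, Rbm14 was higher and Sf3b2 and Rbm4 were lower without overlap (3 of 7, against 20.6% of 6662 entries). Between Thy1+Nic and Thy1 only Tra2b was without overlap, lower with nicotine (1 of 7, against 20.7% of 6048). In CPM the counts differed. Only Rbm14, higher with nicotine, was without overlap between Sst+Nic and Sst (1 of 7, against 20.8% of entries), where Sf3b2 had means of 833 and 804 CPM, and 0 of 7 were between Thy1+Nic and Thy1 (20.9%). Between cell types Rbfox1, Tra2b and Sf3b2 were higher in Sst without nicotine (3 of 7, against 35.3%), and Rbfox1, Tra2b, Sf1 and Rbm14 in Sst+Nic after it (4 of 7, against 39.0%), with Rbm4 overlapping. With 7 genes these counts cannot be set apart from the shares over all entries.

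The entries whose pattern was most like that of each gene were found in log2 TMM-normalized CPM over all 10 libraries and 420 entries of the filled stretches, a description without a test. Rbfox1 was most like Sst (Pearson r = 0.95) and Masp1 (r = 0.94), over libraries of 2 cell types, and the part of the cell type in these values was not tested. Masp1, a serine protease of the lectin complement pathway, had a mean of 82.7 normalized CPM in Sst and 73.3 in Sst+Nic, against 1.86 in Thy1 and 0.114 in Thy1+Nic. Elavl1 was most like Ccs (r = 0.82), the copper chaperone for superoxide dismutase, and Abi3bp (0.74). Tra2b was most like Kat5 (0.84), a histone acetyltransferase, and Eif4a2 (0.80), an RNA helicase of translation initiation. For Sf1 these were Anks3 (0.81) and Carhsp1 (0.80), and for Sf3b2 the entry Gm16385 (0.83) and Ncbp2 (0.80), a subunit of the nuclear cap-binding complex. Rbm4 was most like 1300002E11Rik (0.84) and Ccdc58 (0.81), and Rbm14 most like Ppp2r5b (0.82), a regulatory subunit of protein phosphatase 2A, and Acy3 (0.79). All points share the library scaling and amplification. The partners of each gene were picked as the highest of 420 entries over 10 libraries, a choice that favours high r values. Spearman rho, in the order named, was 0.88 and 0.85 for Rbfox1, 0.65 and 0.88 for Elavl1 and 0.59 and 0.84 for Tra2b. For Sf1 it was 0.49 and 0.69, for Sf3b2 0.64 and 0.84, for Rbm4 0.90 and 0.87 and for Rbm14 0.77 and 0.66.

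Other genes of RNA processing were examined as a fixed list of 16, of which 15 lie in the filled stretches. In each of the 5 comparisons 0 of them were called (14 or 15 tested), beside the background shares given above. Their median log2 fold change was 0.02 for nicotine in Sst-neurons and 0.53 in Thy1-neurons, where all entries tested had 0.05 and 0.00 and the 7 genes had -0.16 and 0.11. Between cell types the list had medians of 0.33 without and 0.01 with nicotine, against 0.05 and 0.09 for all entries and 0.23 and 0.20 for the 7 genes. At an unadjusted p-value under 0.05 were 1 gene in each nicotine comparison and in the interaction, 5 between cell types without nicotine and 1 with it. Over all entries these numbers were 280 of 6689 and 264 of 6048 for nicotine in Sst- and Thy1-neurons, 605 of 8242 for the interaction, and 1036 of 6350 and 1027 of 6509 between cell types. The genes of the list are named after their values were seen.

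In Sst-neurons that gene was Fyttd1, which encodes an adaptor of mRNA export. Fyttd1 was at 375, 205 and 199 CPM in Sst and at 751 and 502 in Sst+Nic, without overlap. Its log2 fold change was 1.07 ± 0.30 (unadjusted p = 0.00836, adjusted p = 1.00 in edgeR) and its interaction was 1.47 ± 0.44 (unadjusted p = 0.00576, adjusted p = 0.672 in edgeR). In Thy1-neurons Sart1, which recruits the tri-snRNP to the spliceosome, was at 15.5 and 28.6 CPM with saline and at 66.8, 49.6 and 57.2 with nicotine. Its log2 fold change was 1.47 ± 0.52 (unadjusted p = 0.0223, adjusted p = 1.00 in edgeR).

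Between cell types Xab2, a splicing factor that also acts in transcription-coupled repair, had the largest positive value of the list. Xab2 was at 218, 44.6 and 90.1 CPM in Sst and at 11.2 and 10.4 in Thy1, a log2 fold change of 3.20 ± 0.69 (unadjusted p = 0.00249, adjusted p = 0.0807 in edgeR). After nicotine it was 2.13 ± 0.58 (adjusted p = 0.159 in edgeR), with 233 and 97.4 CPM in Sst+Nic and 19.3, 13.7 and 47.4 in Thy1+Nic. The other genes at an unadjusted p-value under 0.05 without nicotine were Fyttd1 (-1.14 ± 0.30), Ncbp2 (0.71 ± 0.25), Ppil2 (0.97 ± 0.37), a cyclophilin of the spliceosome, and Rbm11 (-4.58 ± 1.69), a splicing regulator of brain and testis. Rbm11 was at 0.249, 0 and 2.70 CPM in Sst, values that rest on 10 counts or fewer, and at 25.5 and 17.3 in Thy1.

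Of 26 relatives of the 7 genes and other canonical splicing regulators, among them Rbfox2, Rbfox3, Elavl2 to Elavl4, Tra2a, Nova1, Ptbp2 and Sf3b1, 24 had an entry in the table and 0 lay in the filled stretches. Their values were not read, so that the neuronal members of the Rbfox and Elavl families other than Rbfox1 are not described here.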

How the data were processed

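RNA was sequenced from hand-collected Sst- and Thy1-neurons. The authors aligned paired-end reads to the mouse genome (GRCm38) with TopHat and deposited raw fragment counts per gene entry. HTSeq is named in the submitters' processing notes, and its settings and annotation are not given in the sources used here. The table held 35129 entries and 10 libraries.

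Gene positions were taken from RefSeq (GRCm38.p6), gene models and exon lengths from GENCODE M21. Filled stretches of chromosomes were found by comparing entries with the group values of the study's own lists, a rule set after earlier results had been seen, and names outside them were not read. Within 1% of the study's value were 14 of 35 genes compared on chromosome 16 (lowest ratio 0.3077), 8 of 9 on chromosome 8 and 6 of 8 on chromosome 19, so that levels of single entries on chromosome 16, where Rbfox1 and Tra2b lie, may be inexact. The 7 genes and the gene lists were chosen with earlier results of these data known. All 7 genes, list genes called in a comparison and, per gene, the 2 entries with the highest correlation (mean of at least 10 CPM) were to be named.

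Counts were fitted with edgeR 4.0.16 (R 4.3.3) by the quasi-likelihood test with TMM and filterByExpr (minimum count 10), on the libraries compared, and adjusted over all entries tested. EBSeq, which the study used, was replaced by edgeR with the same thresholds. A standard error is the log2 fold change divided by the root of its F statistic. Each library was labelled as a separate sample of its group. Alternatives were DESeq2 1.42.0, limma voom with quality weights (limma 3.58.1), RLE, library totals, other filters, subsets of entries, the replicate number as a block, 1 fit of all libraries and each library left out. Scripts were tested on simulated data with less spread between libraries than these counts, whose common dispersion was 0.826 to 1.19 in the main fits. That test therefore does not show what can be detected here. CPM used library totals, and 95% intervals are Wilson's. Python 3.11.15, scipy 1.17.1 and pandas 2.3.3 were used for levels, ratios and exact permutation tests.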

Additional observations from a re-analysis of the deposited data

How the results depend on the processing

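Under all alternatives and with each library left out, 0 of the 7 genes were called in any of the 5 comparisons, in 588 refitted fold changes. The sign of the fold change was opposite to the reported one in 6 of 112 values for nicotine in Sst-neurons, 10 of 112 in Thy1-neurons, 9 of 112 and 7 of 112 between cell types without and with nicotine, and 19 of 140 for the interaction. Over all entries the count of calls ranged from 33 to 551 between cell types without nicotine (109 reported) and from 17 to 496 with nicotine (33 reported), the highest with DESeq2 and the lowest with entries of the filled stretches alone, where fewer entries were tested. Leaving out 1 library gave 33 to 55 and 0 to 56 calls, with 33 without Thy1 replicate 2, 55 without Thy1 replicate 3, 0 without Thy1+Nic replicate 3 and 56 without Sst+Nic replicate 3. Thy1 and Sst+Nic hold 2 libraries, so that in the fits without 1 of them the lone library is assumed to vary like the other group, and these counts are no measure of stability. Counts reached 16 and 14 for nicotine in Sst- and Thy1-neurons (DESeq2) and 36 for the interaction (no filter on low counts). Samples with the same replicate number did not deviate together (correlations of -0.08 to 0.02), and with the replicate number as a block 0 of the 7 genes were called, beside 0 and 3 entries for nicotine in Sst- and Thy1-neurons, 227 and 97 between cell types and 0 for the interaction. Leaving mitochondrially encoded genes out of the total moved 21 of 28 group means in CPM by more than the SD between libraries. A smaller total raises every CPM of a library, so that this count does not bear on differences between groups. The ratio of Rbm4 to Rbm14 and its alternatives were added after the data were seen, and with counts summed over a group its log2 difference was -1.71 between Sst+Nic and Sst and -2.01 between Sst+Nic and Thy1+Nic. The groups hold 2 or 3 libraries, which limits what can be detected.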
